A study of Homo sapiens with 9 samples.

Results

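Prostaglandin synthesis was examined through 9 genes: PLA2G4A, PTGS1, PTGS2, PTGES, PTGES2, PTGES3, PTGER2, PTGER4 and HPGD. They were chosen by name, with earlier results of these data known. Every probe set annotated to 1 of them alone was taken, which gave 18 probe sets of 54613 and 9 genes of 19775. The RNA came from HT1080 cells, an established human fibrosarcoma line, seeded on top of fibrillar bovine collagen. The cells had received a protease inhibitor mix for 4 h (PI 4 h) or 24 h (PI 24 h), or were untreated, with 3 arrays per group, and the design text calls the replicates biological. The mix held GM6001 at 100 µM, pepstatin A at 50 µM, E64 at 250 µM, and aprotinin and leupeptin at 2 µM each, which block metallo-, aspartic, cysteine and serine proteases. The untreated arrays are titled as vehicle, and neither the vehicle nor their harvest time is given in the sources used here. The design text words the mix as a kinase inhibitor cocktail, while the treatment protocol and the series title give protease inhibitors. All groups shared the collagen, at 1.7 mg/ml and polymerized for 4 h, an adhesion time of 24 h, and medium with 10% serum. As the untreated arrays carry no time, length of treatment and time in culture cannot be told apart between 4 h and 24 h.

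Prostaglandins are lipid signals made on demand from arachidonic acid. Cytosolic phospholipase A2 frees arachidonic acid from membranes, the cyclooxygenases PTGS1 (COX-1) and PTGS2 (COX-2) turn it into prostaglandin H2, and terminal synthases make prostaglandin E2, which acts on the receptors EP2 and EP4 until HPGD inactivates it. PTGS1 is commonly constitutive, whereas PTGS2 is an inducible early-response gene whose messenger RNA carries AU-rich elements and decays fast. Many fibroblasts and tumour lines raise PTGS2 in response to inflammatory and growth signals.

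The bases before the transcription start of PTGS2, the member whose level changed between the treatment times, are shown beside those of PTGES3, a member with a strong signal in all groups. Both are RefSeq windows of GRCh38.p14, 250 bases long and ending at the base before the annotated start, on the minus strand, at chr1:186680424-186680673 for PTGS2 and chr12:56688285-56688534 for PTGES3. Capitals mark letters that match GGG, any 5 bases and CC (an NF-kB pattern), TTNNGCAAT (C/EBP), CGTCA (a CRE half-site) or TATAAA (the TATA box), each searched on both strands.
PTGS2: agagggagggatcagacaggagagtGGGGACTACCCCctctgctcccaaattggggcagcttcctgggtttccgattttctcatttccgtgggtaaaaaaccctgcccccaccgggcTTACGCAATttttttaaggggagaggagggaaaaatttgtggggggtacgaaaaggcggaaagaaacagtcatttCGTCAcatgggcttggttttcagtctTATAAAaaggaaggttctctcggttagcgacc
PTGES3: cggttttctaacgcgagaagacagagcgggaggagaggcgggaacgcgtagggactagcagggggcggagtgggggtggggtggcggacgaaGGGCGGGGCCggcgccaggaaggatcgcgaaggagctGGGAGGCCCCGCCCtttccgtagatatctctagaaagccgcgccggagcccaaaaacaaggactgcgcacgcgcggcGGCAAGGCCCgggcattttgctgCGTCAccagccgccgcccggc
In the PTGS2 window the matches began 225, 133, 58 and 32 bases before the start, in the order of the motifs named. The NF-kB pattern matched there in 4 overlapping ways, and the CRE half-site overlapped an E-box (CANNTG), which was searched too and is not capitalised. Among 35116 windows of the same length, the NF-kB pattern was in 54.4%, the E-box in 61.8%, the CRE half-site in 21.2%, TATAAA in 10.7% and the C/EBP pattern in 2.04%. The 9 genes had 13 such windows in all. The NF-kB pattern was in 10 of these windows, from 8 genes, and the E-box in 7, from 6 genes. The C/EBP pattern was in the 1 window of PTGS2, TATAAA was in that window and in 1 of PTGS1 (on the opposite strand), and the CRE half-site was in windows of PTGS2, PTGES3, PTGER2 and HPGD. A match of letters is a description and shows no binding.

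Values are deposited linear intensities, given per array or as mean ± SD (n = 3), and tests used log2(intensity + 16), on which the change of a dim gene is understated. The number of arrays limits the precision, and no detection calls came with the values. The median over all probe sets was 14.2 to 18.2 on the 9 arrays. 7 probe sets of the leukocyte genes PTPRC, CD14 and CD3E read 0.3 to 16.3. Summed over the 4 mesenchymal markers the level was 15460 to 18352 at 4 h, 16533.1 to 17368.9 at 24 h and 14335.8 to 16384.1 untreated. Within that list the means of the main probe sets ran both ways: VIM had 11286 at 24 h and 9681 untreated, CD44 4075 and 3634, FN1 974 and 1399, and TGFBI 529 and 843. A second VIM probe set read 2.3 to 23.2. Of the 18 probe sets of the pathway, 15 stayed under 50 on every array and 8 had a mean above 16, so 2 of the 9 genes, PTGER2 and HPGD, had no probe set above that level. The arrays also differed with treatment: spiked-in poly-A RNA had a mean log2 intensity of 10.13 to 10.53 at 4 h, 10.68 to 10.76 at 24 h, and 9.33 to 9.48 on untreated arrays. ACTB, whose 5' to 3' signal ratio falls as RNA degrades, had a ratio of 0.615 to 0.871 at 4 h, 0.654 to 0.727 at 24 h, and 0.855 to 0.922 on untreated arrays. Replicate 2 at 4 h had the ratio of 0.871, near the untreated arrays. Summed over 3 epithelial markers the level was 504.6 to 754.6 at 4 h, 399 to 411 at 24 h and 612.2 to 706.4 untreated, nearly all of it KRT8, while EPCAM and CDH1 stayed at or under 16.4. Summed over 3 endothelial markers it was 39 to 58.2, 59.2 to 81.6 and 25.1 to 36, mostly from 1 PECAM1 probe set. CDH5 stayed at 12.5 or less, and the main probe set of VWF averaged 4.6 at 4 h, 14.5 at 24 h and 3.5 untreated. The part of these differences in the results below was not tested.

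PTGS2, the inducible cyclooxygenase, was high on the 4 h arrays and low on the 24 h arrays, and had the largest log2 change of the 9 genes at 4 h against untreated and between the treatment times. Its brighter probe set read 57.2, 51.5 and 54.9 at 4 h, 5.7, 18.2 and 11 at 24 h, and 13.9, 18.2 and 25.9 on untreated arrays. Every 4 h array thus lay above every other array, whereas the 24 h and untreated arrays overlapped. The dimmer probe set read 28.9, 33.6 and 36.3 at 4 h, 0.9, 7.5 and 5.1 at 24 h, and 6.1, 6.4 and 5.2 on untreated arrays. It put the 4 h arrays highest too, and across the 9 arrays the log2 values of the 2 probe sets had a Pearson correlation of 0.95, a description of probe sets that share the same RNA samples.

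**Figure D1:**
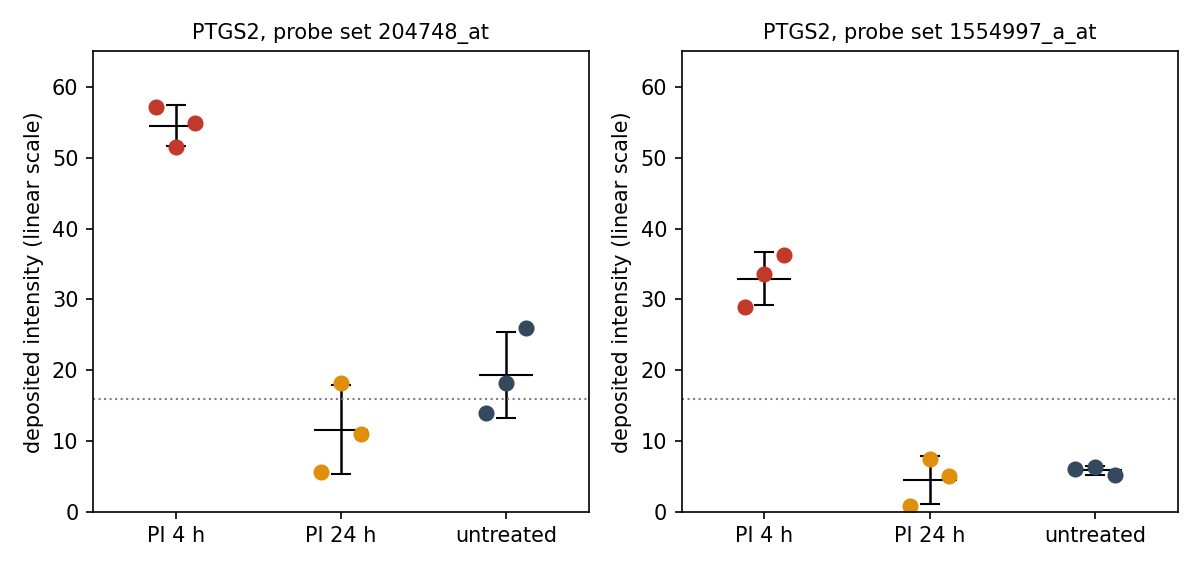
PTGS2 intensity (linear scale) of each array by group for its 2 probe sets; bars are mean ± SD (n = 3) and the dotted line is the pseudocount of 16. The 4 h arrays lie between 51.5 and 57.2 (left) and between 28.9 and 36.3 (right), above all 24 h and untreated arrays.

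Between the treatment times PTGS2 fell: the brighter probe set averaged 11.6 ± 6.3 at 24 h and 54.5 ± 2.9 at 4 h. The log2 change was -1.38 ± 0.18 (SE, limma, adjusted p = 0.0293 over 19775 genes), or 0.385 times the 4 h level on the scale with the pseudocount (95% interval 0.29 to 0.512). It was the 1 of 9 members that passed, against 0.116% of all genes lower in that comparison, and had the third largest of 23 called falls. As the members were chosen with earlier results of these data known, these shares are a description. In a fit of every probe set on its own, the dimmer one also fell, by 1.27 ± 0.15 (limma adjusted p = 0.0323, beside 0.0201% of 54613 probe sets lower), while the brighter one had an adjusted p of 0.067. With the mean of both probe sets as the value of the gene, the change was -1.32 (limma adjusted p = 0.00924). The call was lost without any 1 of 7 arrays (all but replicate 1 of the untreated and replicate 2 of the 24 h group). The limma adjusted p then ranged from 0.0401 to 0.11 over the 9 arrays left out, with a log2 change between -1.54 and -1.21. With a pseudocount of 1 the change was -2.26 and did not pass (adjusted p = 0.134), and with 64 it was -0.65 (adjusted p = 0.00688).

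After 4 h, PTGS2 averaged 54.5 ± 2.9, against 19.3 ± 6.1 in untreated cells. The log2 change was 1.01 ± 0.18 (SE), 2.01-fold with a 95% interval of 1.51 to 2.68, and missed the threshold over all genes (limma adjusted p = 0.0669). In the fit of every probe set, the log2 change was 1.16 for the dimmer probe set (limma adjusted p = 0.0598). The brighter one had 1.01 there (limma adjusted p = 0.102). The ratio of plain mean intensities was 2.82, and 5.58 for the dimmer probe set, whose untreated mean of 5.9 lay under the pseudocount. In 3 of 18 alternatives the change passed the threshold: the mean of both probe sets (log2 change 1.08, adjusted p = 0.034), leaving out dim genes (adjusted p = 0.0248) and a pseudocount of 64 (log2 change 0.51, adjusted p = 0.0187). The other 15 did not, with a limma adjusted p of up to 0.266 (pseudocount of 1). None of the 9 fits with 1 array left out passed (limma adjusted p between 0.0696 and 0.233). Among these, the log2 change without replicate 2 of the 4 h group was 1.04 (adjusted p = 0.0828).

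After 24 h, PTGS2 averaged 11.6 ± 6.3, against 19.3 ± 6.1 in untreated cells. The groups overlapped and the change did not pass (log2 change -0.37 ± 0.18 SE, limma adjusted p = 0.377, 95% interval -0.78 to 0.05). For the dimmer probe set the averages were 4.5 ± 3.3 at 24 h and 5.9 ± 0.6 untreated, and the change was -0.11 (limma adjusted p = 0.822). No difference was detected with either probe set, and whether the low readings hid one was not tested. The RNA came from whole cultures, in which fewer cells with the transcript and less transcript per cell cannot be told apart.

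PTGS1, the constitutive cyclooxygenase, did not pass in any comparison. Its main probe set, the one with the highest mean, read 31.4, 24.6 and 22.5 at 4 h, 15.3, 40.5 and 17 at 24 h, and 35.4, 30.2 and 26.5 on untreated arrays. The groups overlapped, and the log2 change was -0.15 at 4 h and -0.26 at 24 h against untreated (limma adjusted p = 0.845 and 0.615), with 95% intervals of -0.63 to 0.34 and -0.75 to 0.22. Its other 3 probe sets read 15.6 to 40.9, 2.1 to 24.4 and 1.1 to 23.2 over the 9 arrays. The direction at 4 h depended on the probe set, and their mean gave a log2 change of 0.10.

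PLA2G4A, cytosolic phospholipase A2, supplies the arachidonic acid. In RefSeq it is the next protein-coding gene beside PTGS2, with the non-coding PACERR between them, for which no probe set was named. Its 1 probe set read 17.3, 22.7 and 15.6 at 4 h, 6.9, 12.7 and 12 at 24 h, and 24.1, 17.2 and 20.5 on untreated arrays. All 24 h arrays lay below the others, around or under the pseudocount. The log2 change was -0.47 ± 0.14 at 24 h against untreated and -0.38 ± 0.14 at 24 h against 4 h (SE), and neither passed (limma adjusted p = 0.149 and 0.351). At 4 h it was -0.08 (limma adjusted p = 0.871).

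Among the terminal prostaglandin E synthases, PTGES2 had its lowest readings at 24 h. Its probe set read 220.1, 228.5 and 197.8 at 4 h, 189.8, 178.9 and 145 at 24 h, and 240.6, 245.8 and 258.6 on untreated arrays. The 3 groups did not overlap in any pair. PTGES2 averaged 171 ± 23 at 24 h and 248 ± 9 in untreated cells, and the log2 change of -0.50 ± 0.13 (SE) did not pass (limma adjusted p = 0.104, 95% interval -0.79 to -0.22). It passed in 2 of 18 alternatives: when dim genes were left out (adjusted p = 0.0444) and with a pseudocount of 64 (log2 change -0.41, adjusted p = 0.0266). The other 16 did not pass, and over the 9 arrays left out the limma adjusted p ran from 0.0925 to 0.277. At 4 h the average was 215 ± 16 and the change -0.19 (limma adjusted p = 0.6). RefSeq places the antisense gene SLC25A25-AS1 and PTGES2-DT at or beside this locus, and the strand of the probe set was not checked.

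PTGES3, also known as p23, is both a cytosolic prostaglandin E synthase and an HSP90 co-chaperone. It read 5454.6, 5375.5 and 6288 at 4 h, 6637.3, 6378.4 and 6705.3 at 24 h, and 6074.4, 5992.5 and 5411.3 on untreated arrays. The 24 h arrays lay above all others, though by little. The log2 change was 0.18 ± 0.11 at 24 h against untreated and 0.21 ± 0.11 at 24 h against 4 h (SE), and neither passed (limma adjusted p = 0.511 and 0.546). The 95% intervals ended at 1.35-fold and 1.38-fold. The size depended on the scaling: in the same order the log2 changes were 0.015 and 0.069 with quantile normalization, and 0.12 and 0.23 with median centring.

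PTGES is the microsomal synthase that is commonly induced together with PTGS2, and it did not pass in any comparison. Its main probe set read 25.4, 32.3 and 22.5 at 4 h, 14.9, 19.4 and 19.1 at 24 h, and 26.9, 17.9 and 21.1 on untreated arrays. The 24 h arrays lay below the 4 h arrays, with a log2 change of -0.33 that did not pass (limma adjusted p = 0.413), and both overlapped the untreated arrays. Its other probe set read 5.2, 18 and 4.9 at 4 h, 6, 18.2 and 5.9 at 24 h, and 23.8, 29.1 and 19.7 on untreated arrays. There both treated groups lay below untreated, with log2 changes of -0.70 and -0.65 that did not pass (limma adjusted p = 0.313 and 0.261). The 2 probe sets differed in sign at 4 h, so no direction is given for the gene.

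The receptor genes and HPGD were dim. PTGER4, which encodes the EP4 receptor, read 27.5 to 39.6 at 4 h, 29 to 48.2 at 24 h and 21.7 to 38.2 on untreated arrays with its main probe set, and 1.2 to 7.1 over all arrays with the other. Its groups overlapped in every pair, and the log2 change was 0.12 at 4 h and 0.21 at 24 h against untreated (limma adjusted p = 0.852 and 0.662). PTGER2, which encodes the EP2 receptor, read 0.6 to 6.4 over the 9 arrays. The 4 probe sets of HPGD, the enzyme that inactivates prostaglandins, read 0.2 to 17.4. No change of PTGER2 or HPGD was detected with the main probe sets, where the limma adjusted p was between 0.52 and 0.907. In the fit of every probe set, the other HPGD probe sets had a limma adjusted p between 0.529 and 0.989. Among them, 1 read 0.8 on each 4 h array and 1.7 to 7.2 at 24 h (limma adjusted p = 0.644). Whether the low readings hid a change was not tested.

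**Figure D2:**
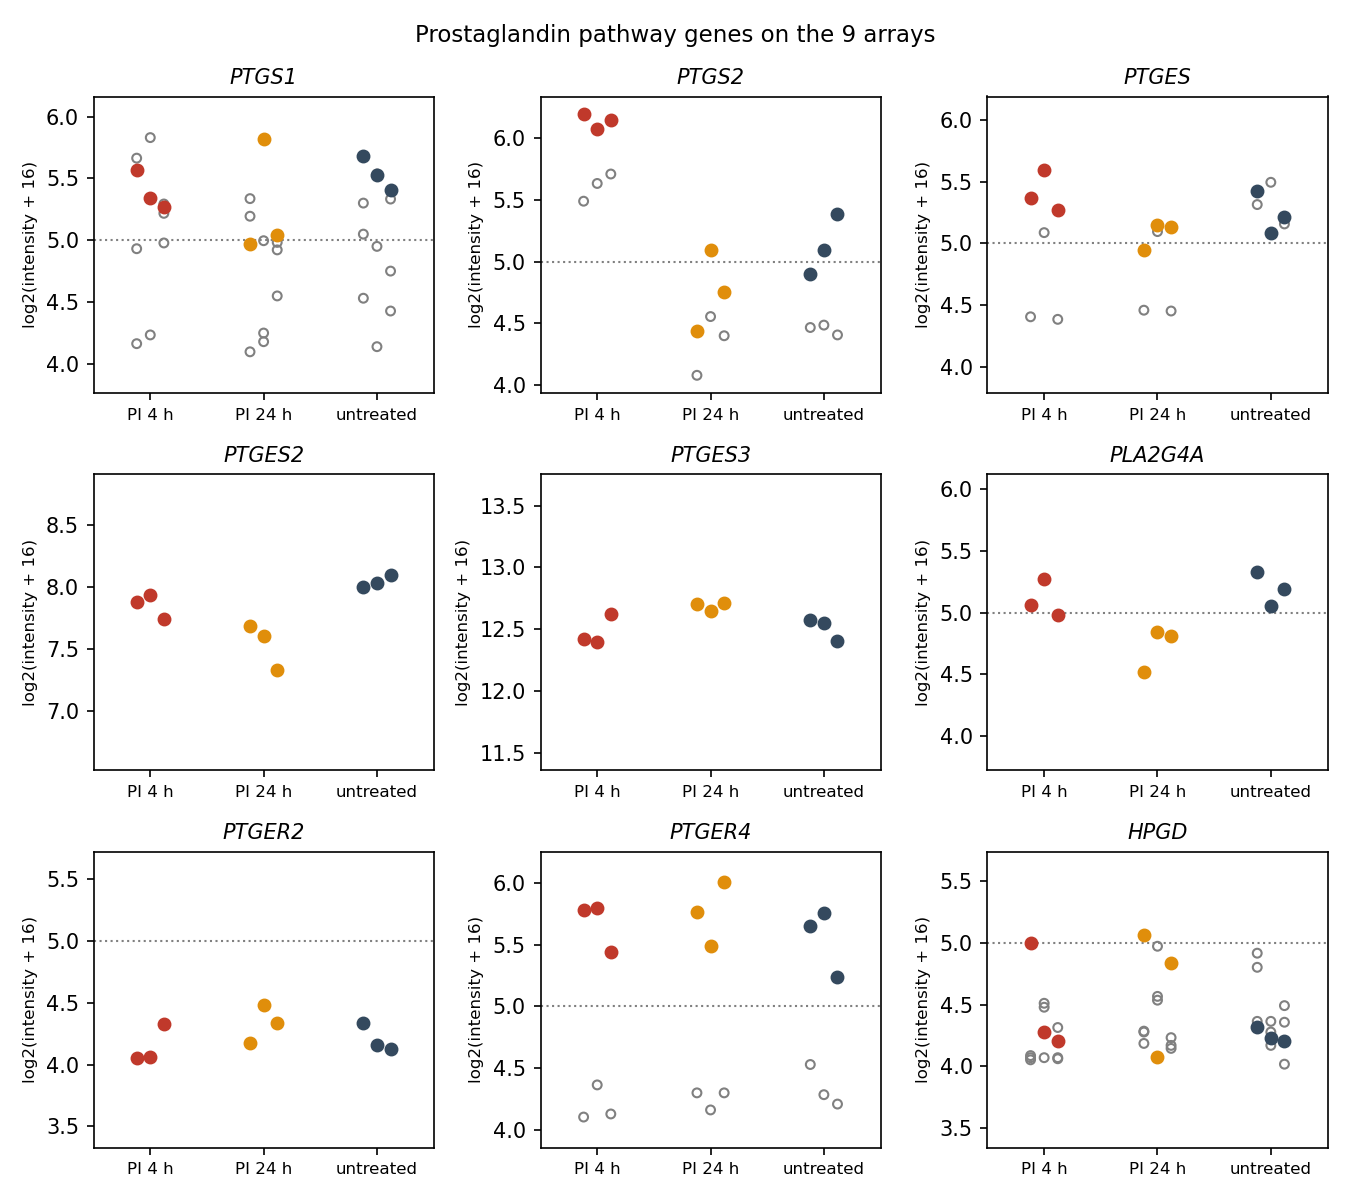
Each of the 9 genes on the 9 arrays as log2(intensity + 16), by group; filled points are the probe set used in the test, open points the other probe sets, and the dotted line marks an intensity of 16 for the dim genes (axes differ). PTGS2 is high at 4 h in both probe sets, PTGES2 reads 145 to 189.8 at 24 h against 240.6 to 258.6 untreated, and PTGER2 and most HPGD points lie under the line.

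Counted over the 9 genes, 1 passed in any of the 3 comparisons. At 4 h against untreated, none passed with limma, beside 0.253% of all genes in either direction. One (PTGS2) had an unadjusted p under 0.05, as had 12.3% of all genes. The groups did not overlap for PTGS2 (higher) and PTGES2 (lower), 2 genes, beside 17.5% of all genes. At 24 h against untreated none passed either, beside 0.47%, and 2 (PTGES2 and PLA2G4A) had an unadjusted p under 0.05, beside 15.8%. Groups did not overlap for PTGES3 (higher), PTGES2 and PLA2G4A (lower), beside 25% of all genes. At 24 h against 4 h, 1 passed, beside 0.142% in either direction, and 4 had an unadjusted p under 0.05 (PTGS2, PLA2G4A, PTGES2 and PTGES, all lower), beside 11.4%. Groups did not overlap for those 4 and for PTGES3 (higher), beside 15.2% of all genes. The median log2 change of the 9 genes was -0.03 at 4 h, -0.16 at 24 h and -0.11 between the times, and that of all genes 0.01, 0.01 and -0.0046. The comparisons share arrays, so these counts are not independent of each other.

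**Figure D3:**
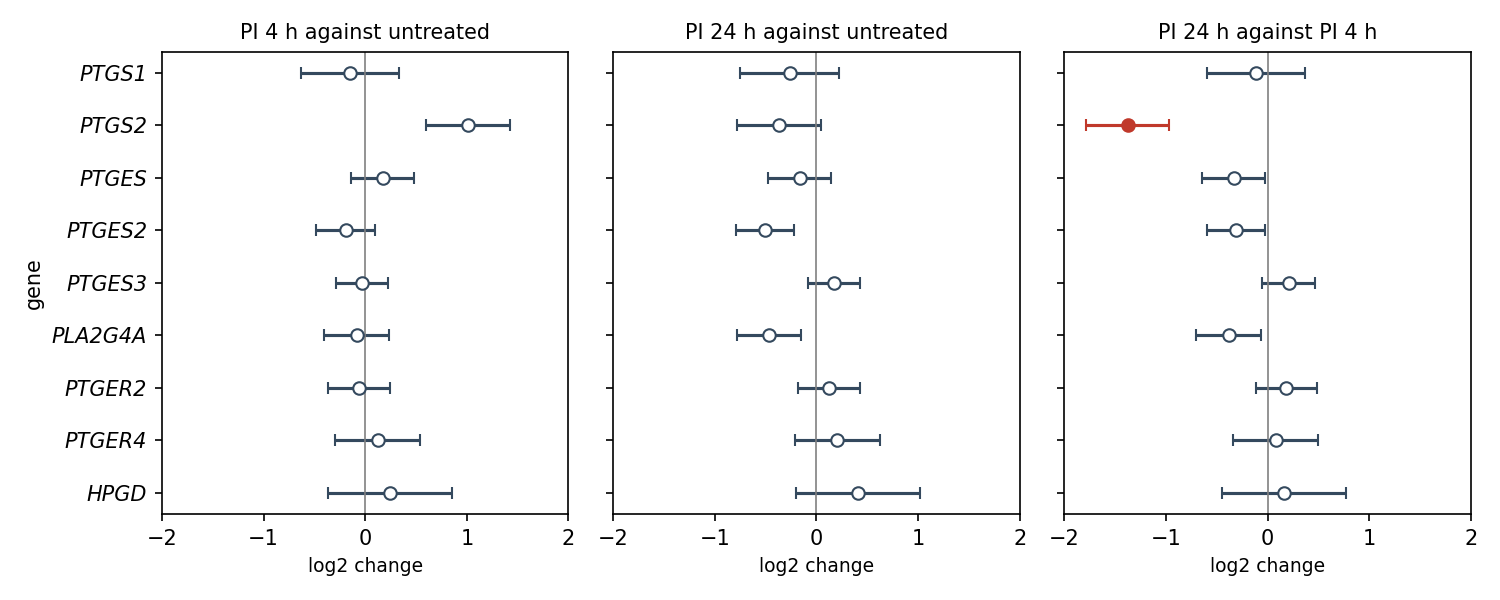
Log2 change of the 9 genes in the 3 comparisons, with 95% intervals from limma; the filled red point passed the threshold over all genes. PTGS2 stands at 1.01 for 4 h against untreated and at -1.38 for 24 h against 4 h, where it is the 1 gene past the threshold.

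The wider eicosanoid pathway was read from 5 lists with 63 measured genes, 45 of them with a mean above 16. At 4 h against untreated none of the 63 passed with limma and 10 had an unadjusted p under 0.05, beside 12.3% of all genes. At 24 h against untreated 1 rose (0.217% of all genes did), none fell and 14 had an unadjusted p under 0.05, beside 15.8% of all genes. At 24 h against 4 h none passed and 13 had such a p, beside 11.4% of all genes. The median log2 change of the 63 genes was -0.06, -0.0035 and 0.07 in the 3 comparisons, beside 0.01, 0.01 and -0.0046 over all genes.

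The gene that rose was CBR3, carbonyl reductase 3, of the list of other prostanoid synthases and reductases. It read 476, 428 and 530.1 at 4 h, 679.7, 522.6 and 569.9 at 24 h, and 320.8, 312.8 and 320.6 on untreated arrays. All treated arrays lay above the untreated ones. The log2 change was 0.85 ± 0.13 (SE) at 24 h (1.81-fold, limma adjusted p = 0.0411) and 0.56 ± 0.13 at 4 h, which did not pass (limma adjusted p = 0.144). The 24 h call held in 8 of 18 alternatives and was lost without any 1 of 7 arrays (all but replicates 2 and 3 of the 4 h group), with adjusted p between 0.031 and 0.182 over the 9 arrays left out. AKR1C3, which makes prostaglandin F2 and related products, averaged 1317 ± 33 at 24 h and 858 ± 68 untreated (log2 change 0.61, limma adjusted p = 0.0836), and its probe set may share signal with the close paralogs AKR1C1 and AKR1C2. The other 10 of the 12 measured genes in that list did not pass. Of the 12, 2 had an unadjusted p under 0.05 at 4 h, 5 at 24 h and 5 between the times, beside 12.3%, 15.8% and 11.4% of all genes.

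None of the 15 measured genes of phospholipases and arachidonate supply passed in any comparison (limma, with 2, 3 and 3 at an unadjusted p under 0.05 at 4 h, at 24 h and between the times, beside 12.3%, 15.8% and 11.4% of all genes). ANXA1, annexin A1, an inhibitor of phospholipase A2 signalling, averaged 2111 ± 92 at 24 h and 3332 ± 213 in untreated cells. The groups did not overlap, and the log2 change of -0.65 did not pass (limma adjusted p = 0.0678), while its other probe set had the opposite sign. PLA2G4C, another cytosolic phospholipase, averaged 39.3 ± 7.4 at 24 h and 18.3 ± 10.9 untreated (log2 change 0.73, limma adjusted p = 0.16), also with a second probe set of the opposite sign.

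None of the 14 measured genes of other receptors and transport passed (limma, with 3, 3 and 2 at an unadjusted p under 0.05, beside the same 12.3%, 15.8% and 11.4% of all genes). PTGFRN, a membrane protein that dampens the prostaglandin F2 receptor, averaged 209 ± 26 at 24 h and 347 ± 22 untreated (log2 change -0.69, limma adjusted p = 0.0564). Its groups did not overlap in any pair, and its 2 probe sets had the same sign. SLCO3A1, a prostaglandin transporter, averaged 82.7 ± 6.5 at 24 h and 56.4 ± 8.9 untreated (limma adjusted p = 0.13), and 2 of 4 probe sets ran the other way.

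In the lipoxygenase and leukotriene branch none of 13 passed (limma, with 1, 1 and 2 at an unadjusted p under 0.05, beside 12.3%, 15.8% and 11.4%), and 4 of them had a mean above 16. LTA4H, which makes leukotriene B4, averaged 1677 ± 95 at 24 h and 1250 ± 74 untreated (log2 change 0.42, limma adjusted p = 0.12). ALOXE3, an epidermal lipoxygenase, averaged 31.2 ± 16.6 and 20.1 ± 18.6 in the same groups, and these overlapped (limma adjusted p = 0.593).

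None of the 10 genes for proteins that bind AU-rich messages passed (limma, with 2, 2 and 1 at an unadjusted p under 0.05, beside 12.3%, 15.8% and 11.4%). ZFP36L2, which promotes the decay of such messages, read 222.4, 215.6 and 241.5 at 4 h, 180.5, 228.4 and 246.4 at 24 h, and 128.1, 130.3 and 127.8 on untreated arrays. All treated arrays lay above the untreated ones, and the log2 changes of 0.74 at 4 h and 0.69 at 24 h did not pass (limma adjusted p = 0.0623 and 0.0549). Among its 4 probe sets, 3 ran the other way at 4 h and 1 did at 24 h. CELF2, which binds the PTGS2 message, averaged 237 ± 38 at 24 h and 156 ± 20 untreated (limma adjusted p = 0.156), and 3 of 7 probe sets ran the other way.

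Outside the pathway, the 5 genes whose log2 values were most correlated with those of PTGS2 over the 9 arrays were CPEB4, ISG20L2, CCN2, LAMB3 and ITPRIP, among 11939 genes with a mean above 16. Their Pearson correlations with PTGS2 were 0.97 for CPEB4 and 0.96 for the other 4, given as a description of values that share the same arrays. Since they were chosen for this likeness on these arrays, their high values at 4 h were fixed by the choice, and they are given with no test. CCN2, connective tissue growth factor, averaged 1140 ± 253 at 4 h, 256 ± 32 at 24 h and 383 ± 42 in untreated cells. CPEB4, a protein that binds messenger RNA at polyadenylation elements, averaged 98.8 ± 2.2, 45.7 ± 10.2 and 53.3 ± 16.5 in the same groups. ITPRIP averaged 341 ± 30 at 4 h, 197 ± 10 at 24 h and 232 ± 11 in untreated cells. ISG20L2, a nucleolar exonuclease, averaged 693 ± 44, 437 ± 38 and 530 ± 22 in that order of groups, and LAMB3, a laminin chain, 1298 ± 32, 1056 ± 75 and 1078 ± 30. By ratio of these means CCN2 differed most between the treatment times and LAMB3 least.

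**Figure D4:**
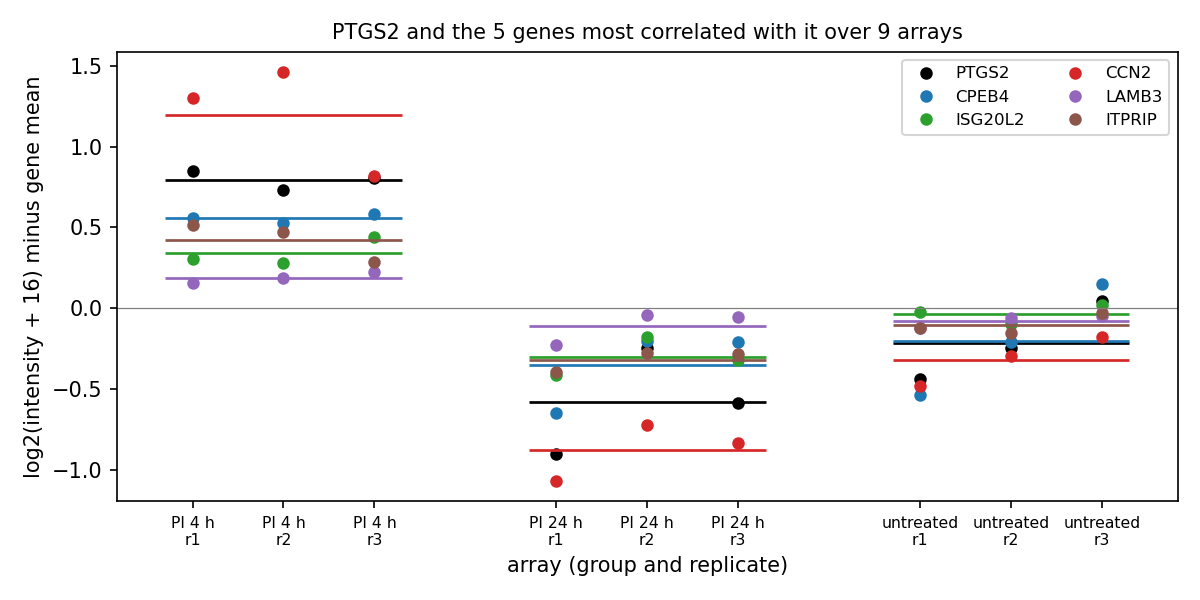
Log2(intensity + 16) minus the mean of the gene over the 9 arrays for PTGS2 and the 5 genes most correlated with it; each point is 1 array and each line the mean of a group. The 5 genes were chosen for their likeness to PTGS2 on these arrays, and CCN2 spans the widest range, from 1140 at 4 h to 256 at 24 h in mean intensity.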

How the data were processed

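Total RNA (6 µg per sample, per the labels) was hybridised to 1-colour Affymetrix arrays. The deposited intensities are linear, with 1 value for each probe set on each array. Per the submitters' processing notes, R 2.9.2 and RMA were used, without a stated role, and the sources used here name no summarisation software. After trimming 2% at each end, the mean was near 100.0 on every array, so a change in total messenger RNA cannot be seen.

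Here 62 control probe sets were left out. Of the other 54613, 41091 named 1 gene in the platform annotation, 1801 several and 11721 were not listed, and symbols were updated through Entrez identifiers for 41037. Each of 19775 genes was represented by its probe set with the highest mean. Values were taken as log2(intensity + 16) with no filter, and limma 3.58.1 in R 4.3.3 was fitted over all 9 arrays with 1 mean per group. Tests were two-sided, and p-values were adjusted by Benjamini-Hochberg over all genes, with 0.05 as the threshold. The fit was tested on simulated data.

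The members, lists and tests were chosen with earlier results of these data known. All members are described. From each list the genes past the threshold and the 2 with the smallest p at 24 h against untreated (mean above 16) are named, and so are the 5 genes most correlated with PTGS2. Alternatives were pseudocounts of 1 and 64, quantile normalization, median centring, the mean over probe sets, every probe set, a filter at the 40th percentile, the compared groups alone, a replicate block and leaving out each array. Probe sets are given no coordinates, since the array names no build, and the promoter windows carry those of RefSeq.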

Additional observations from a re-analysis of the deposited data

Results flagged for a closer look

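The level of PTGS2 differed between the treatment times. Its log2 change at 24 h against 4 h was -1.38 ± 0.18 (SE, limma adjusted p = 0.0293). Since the untreated arrays cancel in it, this comparison is also the test of the difference between the change at 24 h (-0.37) and the change at 4 h (1.01), each against untreated. All 3 arrays at 24 h lay below all 3 at 4 h in both probe sets. The call was kept in 6 of 18 alternatives and lost in 12, with a limma adjusted p between 0.00688 and 0.134. No group was large enough to test for single arrays that stand apart.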

How the results depend on the processing

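The direction of the PTGS2 change at 24 h against 4 h was the same in all 18 alternatives. The call was lost with a pseudocount of 1 (-2.26) and median centring (-1.36). Every probe set tested on its own, the compared groups alone and a replicate block (-1.38 each) lost it too. Over the 9 fits with 1 array left out the call was lost in 7, and the change ran from -1.54 to -1.21. PTGS2 at 4 h against untreated passed with a pseudocount of 64 (0.51), the mean over probe sets (1.08) and the filter (1.01). Same-numbered arrays had deviations correlated at -0.05 to 0.06, and arrays with different numbers at -0.05 to 0.08. Same-numbered arrays of the 4 h and 24 h groups had 0.04, 0.04 and 0.06. Those of the untreated and 24 h groups had 0.04, 0.04 and 0.01, and those of the untreated and 4 h groups -0.05, 0.05 and -0.04. These values do not settle whether replicate numbers pair the samples. The replicate block moved the counts of changed genes to 3, 1 and 3 at 4 h, at 24 h and between the times.

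Those counts were 50, 93 and 28 of all genes. They became 6, 1 and 9 with a pseudocount of 1, 273, 833 and 244 with 64, 7, 29 and 14 with every probe set, 175, 585 and 121 with the filter, and 2, 202 and 1 with the compared groups alone. The mean over probe sets gave 26 at 4 h and 49 at 24 h, and median centring 17 at 4 h and 15 between the times. At 24 h median centring gave 22 higher and 56 lower genes, against 43 and 50. With arrays left out the counts ran from 2 to 16, 0 to 256 and 6 to 18.

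Of the 63 other eicosanoid genes, the count at 4 h (0) became 2 with a pseudocount of 64 and 1 with the filter. The count at 24 h (1) became 0 with a pseudocount of 1, every probe set or the block, 8 with a pseudocount of 64, 5 with the filter, 2 with quantile normalization, the mean over probe sets or the compared groups alone, and 0 to 3 with arrays left out. Between the times 1 passed with a pseudocount of 64.

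For the other 8 members, 411 of 426 values kept their direction and side of the threshold, 2 (PTGES2 at 24 h) passed and 13 turned in sign, all for changes that did not pass. With the mean over probe sets the 4 h changes of PTGS1, PTGES, PTGER4 and HPGD were 0.10, -0.26, -0.0090 and -0.11. With arrays left out, PTGES3 at 4 h ran from -0.10 to 0.0094, PTGER2 from -0.15 to 0.0024, PTGER4 from -0.0320 to 0.24 and HPGD from -0.0084 to 0.38. Between the times PTGS1 ran from -0.39 to 0.0400, PTGER4 from -0.0442 to 0.21 and HPGD from -0.0359 to 0.46. The cause of these shifts was not tested. PTGER2 and HPGD had no probe set with a mean above 16.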
